A study of Mus musculus with 6 samples.

Results

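The genes described here build the machines that carry new secretory proteins into the endoplasmic reticulum (ER) and between the ER and the Golgi: the signal recognition particle, the Sec61 channel, the TRAP complex, signal peptidase, the COPII coat, the Sec22 SNAREs, the p24 cargo receptors and the COPI coat. They were chosen by symbol (Srp9, 14, 19, 54, 68 and 72; Sec11, 13, 16, 22, 23, 24, 31, 61, 62 and 63; Ssr, Spcs, Tmed, Cop and Sar1), a rule that itself reads no measured value although the set was proposed with earlier results of these data known, and numbered 57 of the 25189 symbols in the table. RNA-seq counts came from 6 libraries labelled as kidney tissue from male wild-type C57BL/6 mice on day 2 of ischaemia-reperfusion (I/R), in which renal blood flow is stopped and then restored. In 3 libraries the animals had I/R alone, and in 3 they had I/R and chemerin-9 (C9), a peptide of the chemerin C terminus that acts on the chemerin receptor. Both groups carry the injury, and no uninjured kidney was analysed here. The sources used here give no age for the mice, no length of ischaemia and no dose or route for C9.

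Total counts per library were 13069464 to 16938301 in I/R and 11217252 to 14004529 with C9. The labels of the treated samples name libraries with the letter S, whereas the treated columns of the table carry the letters IC. These were read as I/R with C9, which the labels could not bear out, and every direction below rests on that reading. Each library has a batch date of its own, so batch and library cannot be told apart. The labels do not say that the libraries are separate mice, and p-values measure only how far these 6 libraries spread, which may be technical. The kidney label was checked against defining markers: 9 of 20 listed nephron genes have a row, and their median level was 0.349 to 0.861 CPM (the count of a gene scaled by the TMM-adjusted library size), with summed levels of 36.9 to 39.0 CPM in I/R and 38.6 to 46.2 CPM with C9. Lrp2, an endocytic receptor in the proximal tubule, was at 3.19 CPM in I/R and 3.37 CPM with C9, and most of these markers were near the floor in both groups, which goes against the kidney label. For endothelium and leukocytes, 9 of 15 listed genes have a row, 1 of them (Hbb-bs) was at 0 in every library, and the sum was 10.3 to 11.6 CPM in I/R and 15.6 to 16.4 CPM with C9. Flt1, at 4.81 CPM in I/R and 9.25 CPM with C9, weighed most in that difference. Cd68 (3.24 and 3.50 CPM) and Lyz2 (1.72 and 1.74 CPM), the other tested genes of this list, were not called. For fibroblasts and matrix, 10 of 11 listed genes have a row, and 4 fell (40%) and 2 rose (20%), against 26.1% and 25.6% of all tested genes. The sum was 5501 to 5612 CPM in I/R and 4742 to 4863 CPM with C9. Vim, at 1366 CPM in I/R and 853 CPM with C9, weighed most in that difference. Col1a1 (771 and 800 CPM) and Sparc (491 and 524 CPM) were not called, and Col3a1 and Pdgfrb rose. For cell division, all 10 listed genes have a row, 4 fell and 3 rose, where 26.1% and 25.6% of all tested genes did so. The sums were high and overlapped, at 4339 to 4468 CPM in I/R and 4322 to 4393 CPM with C9. Top2a, at 1752 CPM in I/R and 1757 CPM with C9, weighed most in them. The cells that gave the RNA are therefore not established by these markers, and "kidney" is used below only as the label. The part of these marker differences in the results below was not tested, and in bulk tissue fewer cells of a type cannot be told apart from less RNA per cell.

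A protein bound for secretion or for a membrane is recognised by the signal recognition particle as its signal sequence leaves the ribosome, is passed through the Sec61 channel, and loses its signal peptide to signal peptidase. COPII-coated carriers then take it from ER exit sites towards the Golgi, and COPI-coated carriers bring escaped ER proteins and receptors back. Tubule cells depend on this route for their apical and basolateral transporters, and fibroblasts for matrix proteins, of which procollagen is a cargo with a known need for COPII. Many genes of the route are also known targets of the unfolded protein response, through the transcription factors ATF6 and XBP1.

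RefSeq gave a promoter window (250 bases before to 50 after the start, GRCm38.p6) for 49 of the 57 genes, and these were searched on both strands for short elements of the unfolded protein response. The genes without a window were Srp19, Srp68, Sec61a1, Ssr2, Sec11c, Spcs3, Tmed2 and Tmed7. The UPRE core TGACGTGG, a sequence bound by ATF6 and XBP1, was in 5 of the 49 (10.2%), against 0.676% of 32851 windows and 1.01% of the 9733 tested genes with a window. The 5 genes were Sec16b, Sec23a and Sec24d of the COPII coat and Copb1 and Copb2 of the COPI coat. All 5 were among the 23 genes with a window that fell with C9, and none was among the other 26, although the call of Sec16b ended under most alternative settings, as given below. Among all 98 tested genes with this match, 37 (37.8%) fell and 28 (28.6%) rose. For the 5 genes the window with a match is printed 5′ to 3′ in the direction of the gene. The match is in capitals and reads as the reverse complement in Copb1 and Copb2. Sec16b has 2 windows, and its other one, without a match, is not printed. For Sec23b, the paralogue of Sec23a, 1 of its 2 windows, neither with a match, is printed.
Sec16b (chr1:157506546-157506845 + strand): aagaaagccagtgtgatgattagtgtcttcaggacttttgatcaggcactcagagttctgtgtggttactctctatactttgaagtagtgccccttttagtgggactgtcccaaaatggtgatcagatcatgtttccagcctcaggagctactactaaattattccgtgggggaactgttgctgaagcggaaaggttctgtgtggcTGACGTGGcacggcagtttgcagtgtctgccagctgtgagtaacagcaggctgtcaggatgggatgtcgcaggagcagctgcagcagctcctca
Sec24d (chr3:123267246-123267545 + strand): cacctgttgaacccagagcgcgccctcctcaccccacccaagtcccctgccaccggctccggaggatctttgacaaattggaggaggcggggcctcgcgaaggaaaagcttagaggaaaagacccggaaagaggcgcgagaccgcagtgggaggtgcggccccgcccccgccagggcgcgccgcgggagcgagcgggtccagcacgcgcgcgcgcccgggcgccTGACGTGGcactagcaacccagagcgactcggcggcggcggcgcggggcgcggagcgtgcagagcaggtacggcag
Copb1 (chr7:114254631-114254930 - strand): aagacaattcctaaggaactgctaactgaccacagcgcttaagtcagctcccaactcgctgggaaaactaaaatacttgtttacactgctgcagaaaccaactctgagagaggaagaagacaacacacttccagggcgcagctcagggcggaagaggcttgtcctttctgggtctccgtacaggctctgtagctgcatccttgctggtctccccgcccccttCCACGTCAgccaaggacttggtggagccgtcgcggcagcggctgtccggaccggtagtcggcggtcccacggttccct
Copb2 (chr9:98563481-98563780 + strand): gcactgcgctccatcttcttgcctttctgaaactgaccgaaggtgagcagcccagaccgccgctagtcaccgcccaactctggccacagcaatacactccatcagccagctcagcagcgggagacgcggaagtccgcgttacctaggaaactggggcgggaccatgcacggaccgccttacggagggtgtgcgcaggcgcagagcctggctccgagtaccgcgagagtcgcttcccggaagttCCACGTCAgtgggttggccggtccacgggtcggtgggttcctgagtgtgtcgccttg
Sec23a (chr12:59011968-59012267 - strand): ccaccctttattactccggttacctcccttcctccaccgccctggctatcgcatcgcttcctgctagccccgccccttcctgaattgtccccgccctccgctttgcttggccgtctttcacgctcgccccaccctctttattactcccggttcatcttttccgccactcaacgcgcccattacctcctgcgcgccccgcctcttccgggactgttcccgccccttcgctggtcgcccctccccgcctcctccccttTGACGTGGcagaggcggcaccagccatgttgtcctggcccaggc
Sec23b (chr2:144555979-144556278 + strand): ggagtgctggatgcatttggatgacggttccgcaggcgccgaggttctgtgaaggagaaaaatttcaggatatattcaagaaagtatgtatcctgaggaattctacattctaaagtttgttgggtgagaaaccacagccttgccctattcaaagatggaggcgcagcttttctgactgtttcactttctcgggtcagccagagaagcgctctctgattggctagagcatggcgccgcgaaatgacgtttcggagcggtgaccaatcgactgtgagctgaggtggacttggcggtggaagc
Counted from the start site as position 1, the match lay at -44 to -37 in Sec16b, -26 to -19 in Sec24d, -28 to -21 in Copb1, -7 to 1 in Copb2 and 7 to 14 in Sec23a. The longer element ERSE, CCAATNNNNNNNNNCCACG, and ERSE-II, ATTGGNCCACG, were in the windows of 0 of the 49 genes, against 0.119% and 0.0365% of all windows and 0.195% and 0.0925% of tested genes with a window. The cAMP response element TGACGTCA was in 1, that of Cope (2.04%), against 1.79% of all windows and 3.61% of tested genes with a window. The CCAAT box, which is the first part of ERSE, was in 22 (44.9%), against 37.4% of all windows and 43.9% of tested genes with a window. CCACG, which ends ERSE and is also part of the reverse complement of the UPRE core, was in 32 (65.3%), against 32.8% of all windows and 52.3% of tested genes with a window. A match of letters is a description of the window only.

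The comparison is of the libraries read as I/R with C9 against those of I/R alone. Of the 57 genes, 55 had enough counts for a test, and with C9 28 of them fell (50.9%) and 4 rose, at an adjusted p under 0.05 in edgeR's quasi-likelihood test over all 14184 genes. Over all tested genes 26.1% fell and 25.6% rose, and 51.7% changed in either direction. The median log2 fold change was -0.13 over the 55 genes and -0.0037 over all tested genes. With plain library totals in place of TMM factors, 24 fell and 9 rose, so that 72.7% of the calls were falls, against 87.5% with TMM factors. Both medians were higher with that scaling, at -0.064 over the 55 genes and 0.065 over all tested genes. The shares of all tested genes that fell or rose with it are not given here. The falls were mostly small: 4 of 55 genes fell at least 1.5-fold (Sec23a, Sec24d, Sec61b and Tmed3), against 7.76% of all tested genes. Of the 4 that rose, Tmed8 went furthest, by 0.36 on the log2 scale, which is under 1.5-fold, a size that 8.18% of all tested genes passed upwards. The groups did not overlap, with C9 lower, for 30 genes and, with C9 higher, for 5, against 29.2% and 29.3% of all tested genes. The 57 genes together held 0.859%, 0.862% and 0.854% of the counts of the I/R libraries and 0.792%, 0.792% and 0.787% of those with C9.

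**Figure D1:**
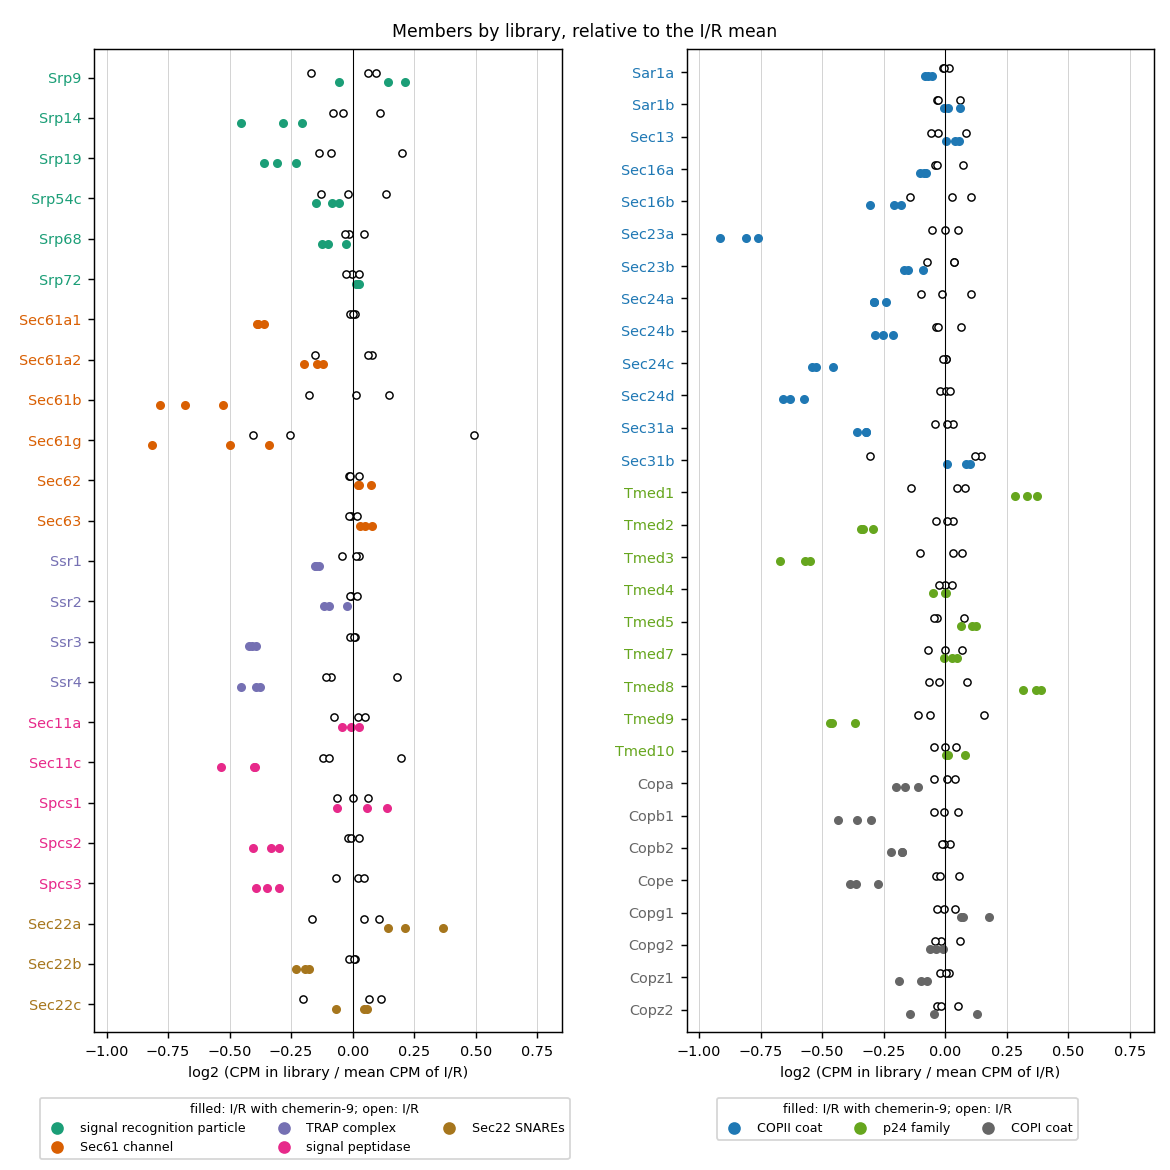
Level of each gene in every library as the log2 of its CPM over the mean CPM of I/R, with I/R libraries as open circles and C9 libraries as filled circles coloured by machine. Srp54a and Tmed6, which lie near the floor, and Srp54b, whose libraries range from 0.789 to 13.8 CPM, are not drawn. The C9 points lie below the I/R points for most genes of the TRAP complex, signal peptidase and the COPII coat, whereas those of Tmed1 and Tmed8 lie above them.

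Summed over a machine with TMM factors, the level was lower with C9 in all 8 machines, and in none did the 3 I/R libraries overlap the 3 C9 libraries. With plain library totals this held for 6 machines, while the sums of the other 2, the signal recognition particle and the p24 family, overlapped and were 0.371% and 0.415% higher with C9. With that scaling the median log2 fold change over all tested genes was 0.065, against -0.0037 with TMM factors. The values that follow are with TMM factors. The largest difference was that of the TRAP complex, whose summed level was 1423, 1446 and 1462 CPM in I/R and 1156, 1183 and 1167 CPM with C9, a difference of -19.0%. The COPII coat summed to 1735 ± 35.5 CPM in I/R and 1428 ± 12.04 CPM with C9 (SD, n = 3 each), and signal peptidase to 765 ± 9.0 and 639.9 ± 21.9 CPM, differences of -17.7% and -16.3%. The Sec61 channel differed by -11.1%, the COPI coat by -9.26% and the Sec22 SNAREs by -6.84%. The smallest differences were those of the signal recognition particle at -4.27% and the p24 family at -4.23%, and the sum of all 57 genes went from 8806 ± 35.7 to 7735 ± 20.1 CPM, which is -12.2%. A sum weighs the abundant genes most, and no test was made of the sums. Of single tested genes 29.2% were lower with C9 without overlap, and no such share was computed for sums of other genes.

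**Figure D2:**
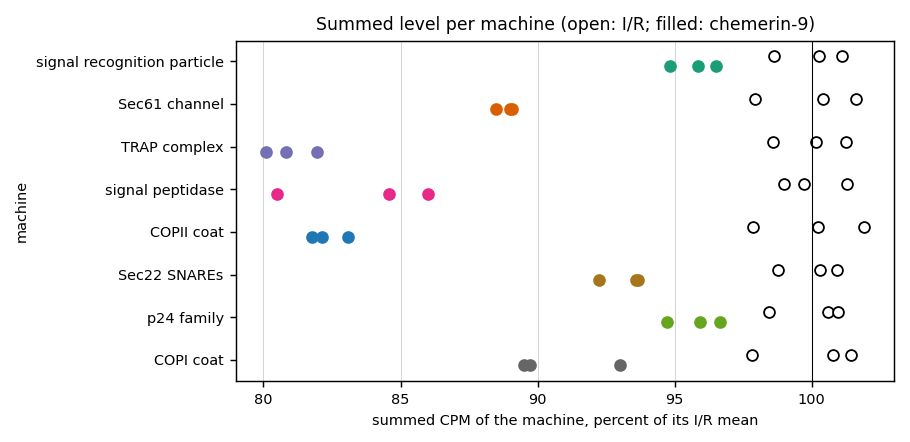
Summed CPM of each of the 8 machines in every library, as a percent of the machine's I/R mean, with I/R libraries as open circles and C9 libraries as filled circles. With TMM factors, as drawn, the groups are apart in every machine, furthest in the TRAP complex, but with plain library totals those of the signal recognition particle and the p24 family overlap and their means are higher with C9.

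The signal recognition particle, which targets proteins to the ER, has 8 genes in the table, 7 of which were tested. Of these 2 fell (28.6%, near the 26.1% of all tested genes), with a median log2 fold change of -0.08. Srp14, which with Srp9 forms the part of the particle that pauses elongation, was the most abundant per kilobase of exon, at 73.9 CPM per kb in I/R and 59.6 with C9. Its level was 86.0, 83.5 and 95.3 CPM in I/R and 64.5, 76.5 and 72.6 CPM with C9, with no overlap, a log2 fold change of -0.31 ± 0.07 (SE) and an adjusted p of 0.001. Srp19, which helps to assemble the particle on its RNA, was at 32.5, 31.4 and 39.7 CPM in I/R and 26.9, 27.9 and 29.4 CPM with C9 (log2 fold change -0.30 ± 0.09, adjusted p = 0.011). That call rested on the highest library, I/R replicate 3, without which the value was -0.18 with an adjusted p of 0.065. Srp9 (21.6 and 23.2 CPM), Srp68 (165 and 155 CPM) and Srp72 (291 and 295 CPM), the last 2 being partners at the other end of the particle, did not pass. Srp54, the GTPase that binds the signal sequence, is split over 3 rows whose transcripts are at least 99.7% identical in their aligned stretches, so the division of reads among them is uncertain. Of these rows Srp54c held most, at 37.0 CPM in I/R and 34.6 CPM with C9, Srp54b ranged from 0.789 to 13.8 CPM over the 6 libraries, and Srp54a, not tested, reached at most 1.80 CPM.

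Of 6 genes of the Sec61 channel 3 fell (50%, against 26.1% of all tested genes), with a median of -0.26. They were the pore subunit Sec61a1 and the small subunits Sec61b and Sec61g, of which Sec61g had an unstable call. Sec61a1, the pore subunit and the most abundant per kilobase (51.8 and 39.9 CPM per kb), was at 346, 351 and 348 CPM in I/R and at 266, 271 and 267 CPM with C9. Each library thus lay within a few percent of its group, the groups were far apart, and the log2 fold change was -0.38 ± 0.03 (adjusted p = 1.8e-07). Sec61b, a small tail-anchored subunit (chr4:47474658-47483242, + strand), was at 41.1, 46.9 and 51.5 CPM in I/R and at 27.0, 29.0 and 32.3 CPM with C9. The groups did not overlap, and the log2 fold change of -0.66 ± 0.09 (adjusted p = 1.8e-05) was the largest of the channel. Sec61g, the other small subunit, was at 39.4, 43.7 and 73.5 CPM in I/R and at 29.6, 37.0 and 41.3 CPM with C9. Its groups overlapped, and its log2 fold change of -0.54 ± 0.18 (adjusted p = 0.020) became -0.20 with an adjusted p of 0.050 without I/R replicate 3. The Sec61g call ended under 5 of 14 alternatives, among them DESeq2 (adjusted p = 0.19) and leaving out C9 replicate 1 (0.11) or C9 replicate 2 (0.062). Sec61g also shares 420 bases at 100% identity with Gm10177, which itself went from 12.3 ± 3.04 to 7.81 ± 1.23 CPM, so the split of reads between them is uncertain. Sec61a2, the second pore gene, was at 71.6 and 64.3 CPM (adjusted p = 0.056). Sec62 (172 and 177 CPM) and Sec63 (260.0 and 269.7 CPM), which serve proteins that enter after translation, had adjusted p-values of 0.37 and 0.21.

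Of the TRAP complex, which sits beside Sec61 and helps weak signal sequences to open it, 3 of 4 genes fell (median -0.28). That is 75%, against 26.1% of all tested genes. Ssr3 was the most abundant of all the genes per kilobase, at 214 CPM per kb in I/R and 162 with C9. Its level was 886, 898 and 896 CPM in I/R and 667, 681 and 674 CPM with C9, and no library came near the other group (log2 fold change -0.41 ± 0.03, adjusted p = 1.8e-08). Ssr4 went from 78.9 ± 9.0 to 59.5 ± 1.68 CPM (-0.41 ± 0.07, adjusted p = 0.00017). Ssr1 went from 258 ± 6.62 to 233 ± 1.27 CPM (-0.15 ± 0.03, adjusted p = 0.0026), and Ssr2, at 213 ± 2.47 and 202 ± 6.82 CPM, did not pass. The subunits thus did not move by one amount: Ssr3 and Ssr4 stood at about the same fold change, and Ssr1 and Ssr2 at smaller ones.

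Signal peptidase, which cuts the signal peptide off, had 3 of 5 genes lower (60%, median -0.34), against 26.1% of all tested genes. Spcs3, an accessory subunit and the most abundant per kilobase (97.5 and 76.8 CPM per kb), was at 343, 349 and 322 CPM in I/R and at 257, 266 and 275 CPM with C9. The lowest I/R library was well above the highest C9 library (log2 fold change -0.34 ± 0.04, adjusted p = 3.7e-06). Spcs2, another accessory subunit, fell as far, from 235 ± 3.58 to 185 ± 6.92 CPM. The catalytic subunit exists in 2 forms, of which Sec11c fell from 20.4 ± 2.59 to 15.0 ± 0.799 CPM (-0.45 ± 0.11, adjusted p = 0.0026). Sec11a, the other form, was at 75.8 ± 3.47 and 75.4 ± 1.73 CPM (adjusted p = 0.90), and Spcs1 was at 94.9 and 98.1 CPM (adjusted p = 0.49). In log2 CPM the Sec11a over Sec11c ratio went from 1.90 ± 0.14 to 2.33 ± 0.09, with no overlap of the groups.

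The COPII coat held the gene with the largest fall, Sec23a, and 2 of the 4 that fell at least 1.5-fold. Of 13 genes 8 fell (61.5%, median -0.22), against 26.1% of all tested genes. They were those of the inner coat (Sec23a, Sec23b and all 4 Sec24 genes), the outer-coat gene Sec31a and the exit-site scaffold Sec16b. Sec23a, which forms the inner coat and drives GTP hydrolysis by Sar1 (chr12:58958383-59012017, - strand), was at 165, 171 and 159 CPM in I/R and at 97.1, 87.4 and 93.9 CPM with C9. The 3 C9 libraries were all far below the lowest I/R library, and the log2 fold change was -0.83 ± 0.05 (adjusted p = 3.1e-09). Sec23b, its paralogue, was at 123, 123 and 114 CPM in I/R and at 108, 107 and 113 CPM with C9. The highest C9 library came close to the lowest I/R library, the log2 fold change was -0.13 ± 0.05 (adjusted p = 0.022), and 7 of 14 alternative settings ended the call.

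The Sec24 proteins pick the cargo, and their 4 genes fell by unequal amounts. Sec24d (chr3:123267455-123365641, + strand) was at 129.8, 132 and 134 CPM in I/R and at 88.5, 85.04 and 83.5 CPM with C9, groups far apart (log2 fold change -0.62 ± 0.04, adjusted p = 1.7e-08). Sec24c went from 210.4 ± 1.13 to 148 ± 4.75 CPM (-0.51 ± 0.04, adjusted p = 4.1e-08). Sec24a went from 124 ± 8.69 to 102 ± 1.94 CPM (-0.27 ± 0.05) and Sec24b from 123 ± 4.96 to 104 ± 2.69 CPM (-0.25 ± 0.04), with adjusted p-values of 0.00037 and 0.00025. The closely related Sec24c and Sec24d thus lay at the larger falls and the closely related Sec24a and Sec24b at the smaller ones.

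Around the inner coat, Sec31a, the outer-coat rod, fell from 266 ± 7.22 to 211 ± 3.09 CPM (-0.33 ± 0.04, adjusted p = 1.9e-06). Its partner Sec13, which also serves in the nuclear pore, was at 115 ± 5.93 and 117 ± 2.10 CPM (adjusted p = 0.56). Sar1a, the GTPase that starts the coat and the most abundant COPII gene per kilobase (70.1 and 66.8 CPM per kb), was at 261, 265 and 261 CPM in I/R and at 249.7, 252 and 248 CPM with C9. These groups did not overlap, but the difference was small, at -0.07 ± 0.03 on the log2 scale, and missed the threshold (adjusted p = 0.094). Sar1b was at 68.04 and 69.1 CPM, Sec16a, the main exit-site scaffold, at 122 and 114 CPM, and Sec31b at 3.29 and 3.45 CPM, none of them past the threshold. Sec16b went from 24.8 ± 2.16 to 21.1 ± 0.955 CPM (-0.22 ± 0.09, adjusted p = 0.046), a call that 12 of 14 alternative settings ended.

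**Figure D3:**
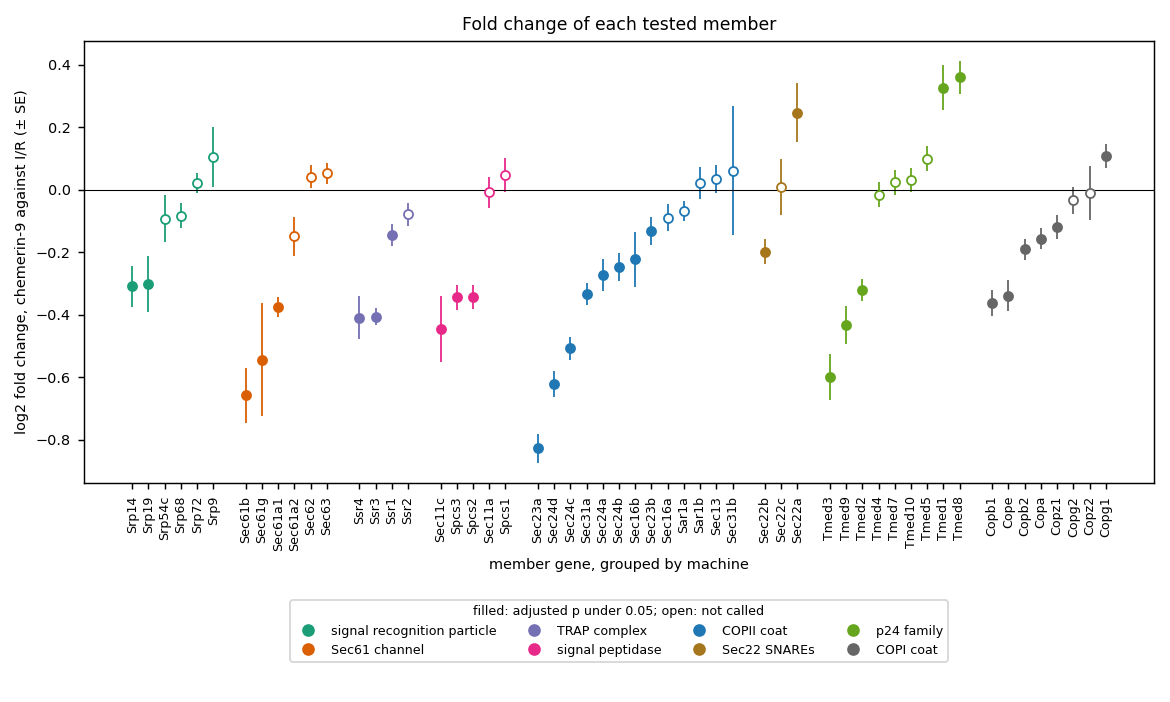
Log2 fold change (C9 over I/R) of each tested gene with its standard error, grouped and coloured by machine, with filled circles for an adjusted p under 0.05. Srp54b, whose error is wide, is not drawn. Sec23a at -0.83, Sec61b at -0.66, Sec24d at -0.62 and Tmed3 at -0.60 lie lowest, and Tmed8 at 0.36 and Tmed1 at 0.33 highest.

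Ratios of paralogues within each library do not depend on library scaling, and 16 pairs were compared. All pairs within the Sec24 genes and within the Sec22 genes are among the 16, so pairs that share a gene are not independent. In 10 of the 16 pairs the 3 I/R ratios and the 3 C9 ratios did not overlap, against 58.5% of single tested genes whose groups did not overlap in either direction. With 3 libraries a group the smallest p of an exact two-sided permutation test is 0.1, which these 10 pairs had, and 0.16 after adjustment over the 16, so no pair could pass. The Sec23a over Sec23b ratio of CPM was 1.34, 1.39 and 1.39 in I/R and 0.899, 0.820 and 0.834 with C9. Sec23a was thus the higher of the pair in CPM in every I/R library and the lower in every C9 library. Per kilobase of the exon union (all exons of a gene merged) Sec23a stayed the higher in both groups. It was at 34.0 against 19 CPM per kb in I/R and at 19.2 against 17.3 with C9. That order depends on the length used. The exon union is 4840 bases for Sec23a and 6302 for Sec23b, and the longest transcript 4109 and 3118. Levels per base of transcript were not computed, so which gene gave more transcripts is not settled. Against Sec24d, the log2 ratio of Sec24a was higher with C9 by 0.35 and that of Sec24b by 0.37, while the Sec24a over Sec24b ratio differed by -0.02 and overlapped. The ratios of the Sar1, Sec16 and Copz pairs overlapped as well, as did those of Sec22c with Sec22a and with Sec22b.

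**Figure D4:**
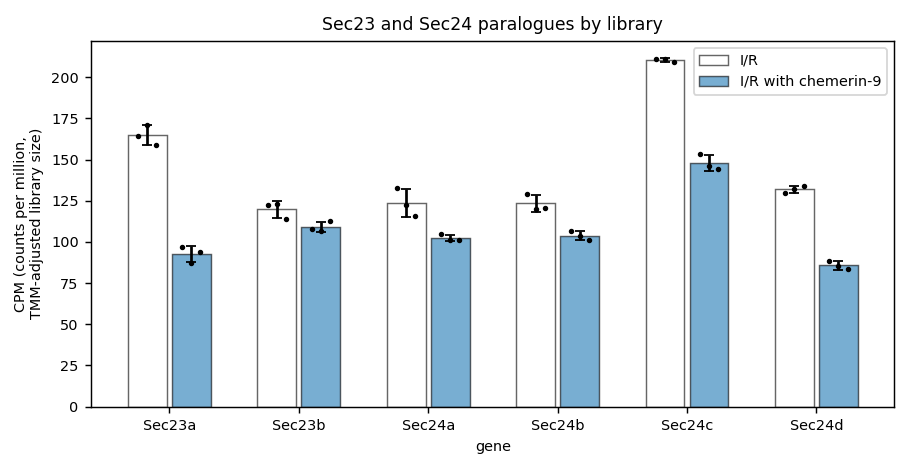
Levels of the Sec23 and Sec24 genes (CPM), with bars for the mean of 3 libraries, whiskers for the SD and points for the libraries. The Sec23a bar falls from 165 to 92.8 CPM and crosses that of Sec23b, which goes from 119.8 to 109 CPM.

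Of the 3 Sec22 genes, 1 fell and 1 rose. These shares, 33.3% each, were near the 26.1% and 25.6% of all tested genes. Sec22b, a SNARE of ER-Golgi carriers, is the most abundant of them per kilobase (30.6 and 26.6 CPM per kb) and was at 120.3, 122 and 122 CPM in I/R and at 104, 106 and 107 CPM with C9. The groups were apart (log2 fold change -0.20 ± 0.04, adjusted p = 0.00069). Sec22a, whose gene is related but whose protein lacks the SNARE motif, was at 21.1 ± 2.03 and 24.98 ± 2.00 CPM (0.25 ± 0.09, adjusted p = 0.041), and without I/R replicate 3 the fold change was 0.16 with an adjusted p of 0.16. That call ended under 7 of 14 alternatives, among them DESeq2 (adjusted p = 0.12), the GC and length correction (0.15) and leaving out I/R replicate 2 (0.058), C9 replicate 1 (0.17) or C9 replicate 2 (0.074). Sec22c was at 26.9 and 27.2 CPM (adjusted p = 0.95).

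In the p24 family, cargo receptors that cycle between ER and Golgi, 3 of 9 tested genes fell and 2 rose (median 0.02). These shares, 33.3% and 22.2%, were near the 26.1% and 25.6% of all tested genes. Tmed2, its most abundant gene per kilobase (97.1 and 77.6 CPM per kb), was at 251, 239 and 246 CPM in I/R and at 195, 193 and 200.3 CPM with C9, apart by far more than either group's spread (log2 fold change -0.32 ± 0.04, adjusted p = 3e-06). Tmed3 (chr9:89699206-89705068, - strand) was at 36.6, 40.1 and 41.2 CPM in I/R and at 26.8, 26.5 and 24.7 CPM with C9, again with no overlap (-0.60 ± 0.07, adjusted p = 7.1e-06). Tmed9 went from 165 ± 16.8 to 122 ± 4.89 CPM (-0.43 ± 0.06, adjusted p = 2.8e-05). Tmed8, a GOLD-domain protein grouped with the family by its name, was at 66.3, 61.4 and 59.6 CPM in I/R and at 80.5, 81.7 and 77.7 CPM with C9 (0.36 ± 0.05, adjusted p = 4.7e-05). Tmed1, a gamma member of the family, was at 29.5, 33.6 and 34.4 CPM in I/R and at 40.9, 42.1 and 39.6 CPM with C9 (0.33 ± 0.07, adjusted p = 0.0014). Neither gene's groups overlapped, and both kept their call under all 14 alternatives. Tmed5 (213 and 228 CPM) missed the threshold at an adjusted p of 0.050, and Tmed4 (117 and 116 CPM), Tmed7 (239 and 243 CPM) and Tmed10 (218 and 223 CPM), the last a main partner of Tmed2, had adjusted p-values of 0.52 to 0.76. Tmed6 had 1 and 4 counts in 2 C9 libraries and none in the other 4 libraries.

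Of the COPI coat 5 of 8 genes fell and 1 rose (median -0.14). These shares were 62.5% and 12.5%, against 26.1% and 25.6% of all tested genes. Copz1, the most abundant per kilobase (57.4 and 52.8 CPM per kb), was at 212, 207 and 211 CPM in I/R and at 196, 199.7 and 184 CPM with C9, close but without overlap (log2 fold change -0.12 ± 0.04, adjusted p = 0.017). The other falls were those of Copb1, from 279 ± 9.43 to 217 ± 10.02 CPM (-0.36 ± 0.04), Cope, from 89.4 ± 3.19 to 70.6 ± 2.96 CPM (-0.34), Copb2, from 266 ± 3.37 to 233 ± 3.87 CPM (-0.19), and Copa, from 512 ± 15.4 to 459 ± 14.3 CPM (-0.16). Their adjusted p-values were 3.4e-06, 4.5e-05, 0.00025 and 0.0015. Copa, Copb2 and Cope form the outer layer of the coat and Copb1 is in the inner one, so the falls were in both. Copg1, the gamma subunit of the inner layer, went the other way, from 288 ± 7.47 to 311 ± 13.7 CPM (0.11 ± 0.04, adjusted p = 0.031), while its paralogue Copg2 was at 101 and 99.0 CPM (adjusted p = 0.54). The delta subunit Arcn1, outside the symbol rule and named after its value was seen, was at 359.9 ± 15.2 and 385.6 ± 3.09 CPM (0.10 ± 0.04, adjusted p = 0.030). Copz2 was at 24.03 and 23.8 CPM (adjusted p = 0.93).

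In I/R replicate 3 several genes stood above the other I/R libraries, Sec61g by a ratio of 1.77 to their mean, Srp19 by 1.24, Sec11c by 1.24, Ssr4 by 1.21, Tmed9 by 1.19, Sec61b by 1.17 and Srp14 by 1.12. Across the 55 tested genes this log2 ratio had a Spearman rho of -0.45 with the length of the longest transcript, and of -0.21 across all tested genes, as a description over genes that share these libraries. Without that library 28 genes fell and 3 rose, and Srp19, Sec61g and Sec22a lost their calls. The share of counts from mitochondrial genes was 2.81 to 2.94% in I/R and 2.56 to 2.64% with C9. The share of 18S ribosomal RNA was 0.381 to 0.517% in I/R and 0.261 to 0.306% with C9, also without overlap, and the part of either share in the results was not tested. Across the 55 genes the fold change between groups had a rho of 0.16 with transcript length, -0.16 with GC content and -0.20 with level.

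Of 136 listed partners of these machines, 130 have a row and 128 were tested, and 57 fell and 26 rose, against 26.1% and 25.6% of all tested genes. With plain library totals 43 fell and 36 rose, so that 54.4% of the calls were falls against 68.7%. The median over all tested genes was also higher with that scaling, at 0.065 against -0.0037. Among the 15 partners of the signal recognition particle and the translocon, 9 fell and 3 rose (median -0.16). Those with the smallest p were Hspa5, the ER HSP70 BiP, Hyou1, its nucleotide exchange factor, Srpr, the receptor of the particle, and Nomo1, a translocon-associated protein. Srpr, on which the particle docks, was at 201, 205 and 206 CPM in I/R and at 149, 153 and 155 CPM with C9 (-0.42 ± 0.04, adjusted p = 2.4e-07), a fall like that of Sec61a1. Hspa5 went from 2332 ± 26.5 to 1107 ± 11.2 CPM, Hyou1 from 443 ± 8.47 to 251 ± 7.49 CPM and Nomo1 from 257 ± 5.21 to 203 ± 8.49 CPM.

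The oligosaccharyltransferase, which attaches glycans at the same channel, had 9 of 12 genes lower (75%, median -0.23), against 26.1% of all tested genes. Ostc, which links it to Sec61, was at 132, 141 and 152 CPM in I/R and at 89.7, 91.7 and 87.2 CPM with C9 (-0.67 ± 0.05, adjusted p = 7.1e-08). Magt1, an oxidoreductase subunit, fell by 0.56 on the log2 scale, Rpn1 by 0.44 and Rpn2 by 0.24. The genes for insertion of membrane proteins by the ER membrane protein complex and the tail-anchor route were more even, with 5 lower and 3 higher of 16 (median -0.03). These shares, 31.25% and 18.75%, were near the 26.1% and 25.6% of all tested genes. Bag6, a chaperone of tail-anchored proteins, fell from 246 ± 7.43 to 183 ± 2.82 CPM and Get3, the targeting ATPase, from 91.2 ± 3.19 to 79.9 ± 0.271 CPM. Of the complex itself, 3 subunits fell (Emc2, Emc4 and Emc9, by 0.16, 0.20 and 0.44 on the log2 scale) and 3 rose. Those that rose were Emc7, which like those 3 was named after its value was seen, Mmgt1 from 76.7 ± 2.18 to 113 ± 5.90 CPM and Emc8 from 38.7 ± 5.70 to 63.5 ± 3.18 CPM.

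Of 21 genes of ER exit sites and cargo receptors 12 fell and 4 rose (median -0.14). Surf4, a cargo receptor for soluble proteins, fell from 327 ± 5.89 to 226 ± 5.84 CPM, Mia3 (TANGO1), which is needed to load procollagen, from 225 ± 3.11 to 166 ± 4.35 CPM, and Tfg, an organiser of exit sites, from 95.3 ± 3.59 to 78.4 ± 1.43 CPM. Ergic1, a membrane protein of the ER-Golgi intermediate compartment, rose from 147 ± 3.24 to 189 ± 2.36 CPM. Of 14 partners of the COPI coat 9 fell (64.3%) and 2 rose (14.3%), with a median of -0.20. The falls were led by Arfgap3, which helps the coat to be shed, from 103 ± 4.69 to 68.3 ± 1.42 CPM. The KDEL receptors that return ER chaperones followed, Kdelr3 from 93.5 ± 3.59 to 66.4 ± 0.636 CPM and Kdelr2 from 176 ± 3.59 to 136 ± 4.53 CPM, with Arfgap1 from 87.8 ± 2.26 to 68.7 ± 2.65 CPM. Of 40 tethers, SNAREs and Rab genes of the ER-Golgi boundary, 12 fell and 12 rose (median -0.02). That is 30% each, near the 26.1% and 25.6% of all tested genes. There the Golgi tethers Golgb1 (208 to 142 CPM) and Golga2 (134 to 87.1 CPM) and the tethering complex subunit Trappc1 (32.0 to 16.3 CPM) fell, and the SNARE Vti1a rose from 35.9 to 58.7 CPM.

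**Figure D5:**
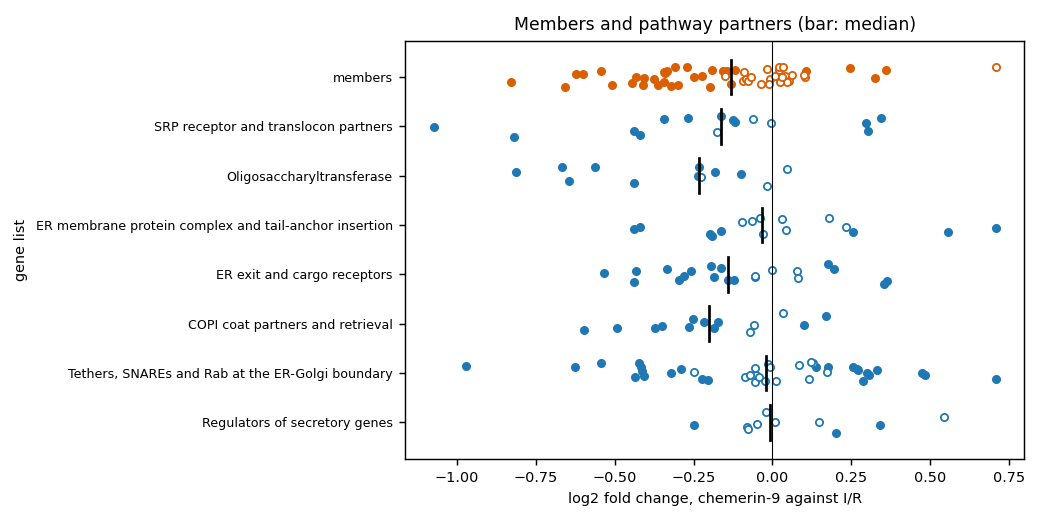
Log2 fold change (C9 over I/R) of each tested gene of the machines (top row) and of each partner list, with filled circles for an adjusted p under 0.05 and a bar at the median. The medians of the partner lists run from -0.23 in the oligosaccharyltransferase to -0.01 in the regulators.

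The regulators of secretory genes did not move one way, with 1 lower and 2 higher of 10 tested (median -0.01). That is 10% and 20%, against 26.1% and 25.6% of all tested genes. Atf6, the membrane-bound sensor whose freed fragment is a transcription factor, was at 312, 314 and 284 CPM in I/R and at 389, 385 and 379 CPM with C9. Its groups were apart (0.34 ± 0.04, adjusted p = 4.8e-06). Ern1, the sensor IRE1 that splices Xbp1 RNA, rose from 107 ± 1.96 to 123 ± 2.13 CPM. Xbp1 was at 128, 129.7 and 125 CPM in I/R and at 107, 105 and 110.4 CPM with C9 (-0.25 ± 0.04, adjusted p = 0.00013), and gene counts do not separate its spliced form. All p-values from the fits are from edgeR's quasi-likelihood test with Benjamini-Hochberg adjustment.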

How the data were processed

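The authors deposited raw counts per gene symbol, whole numbers with no normalization, beside their own log2 fold change, a ratio, a p-value and an FDR, which are used here only as a count of calls in the authors' deposited table. Per the submitters' processing notes, HISAT2, HTSeq, DESeq 1.18.1 and build mm10 were named; libraries came from a Vazyme stranded mRNA kit, per the labels' protocols. No source used here gives the strand setting or annotation release, and overlapping or antisense genes are therefore uncertain. Of 25216 rows, 27 repeats were removed. Deposited gene starts were the same as in GENCODE M21 for 97.5% of matched genes, so coordinates are GRCm38.

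Counts were tested with edgeR 4.0.16 (R 4.3.3; TMM factors, filterByExpr, quasi-likelihood fit on group, Benjamini-Hochberg over 14184 genes, two-sided, threshold 0.05). CPM is the count scaled by the TMM-adjusted library size. Errors are SD over 3 libraries, or SE for a log2 fold change. CPM per kb divides by the exon union of GENCODE M21. Alternatives were RLE factors, plain totals, DESeq2 1.42.0, limma-voom 3.58.1 (added after the data were seen, as were other scalings of the summed levels), no filter, a GC and length offset, a replicate block, a threshold of 0.01 and each library left out. Transcript copies were searched with BLAST 2.17.0, keeping hits of 95% identity that covered at least 50% of the shorter one. The edgeR, DESeq2, limma-voom and GC and length fits were also run on simulated counts with few changed genes and no batch effect. These data differ, with 51.7% of tested genes called, so that run cannot check the scaling or the rate of false calls here. It did not cover the sums, ratios or promoter windows.

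Genes and lists were chosen with earlier results of these data known. Values per library were given for genes called at 1.5-fold or more and for the most abundant gene of each machine per kilobase, with others added for description after their values were seen, and up to 4 partners per list were named by smallest p. Groups were taken from the sample titles, although their treatment field goes C9, C10, C11.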

Additional observations from a re-analysis of the deposited data

How the results depend on the processing

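Over the 14 alternatives, 23 to 31 of the genes fell, and 24 of the 32 calls, 22 falls and 2 rises, held under every one. The count of genes that rose was 4, and became 9 with plain library totals and 2 at an adjusted p under 0.01. Leaving out 1 library gave 2 to 4 rises, with the 2 coming without C9 replicate 1, and 25 to 28 falls. With the GC and length trend removed, Ssr2 turned to 0.088 (adjusted p = 0.042) and Tmed7 to -0.11 (adjusted p = 0.0055) on the log2 scale, and the cause was not tested. DESeq2 gave 25 falls and 3 rises. The authors' deposited table has 25 and 3 at an FDR under 0.05. Its log2 fold changes, such as -0.314 for Srp14 and -0.832 for Sec23a, are those of the DESeq2 fit, so it is no second source. Of all its 25189 symbols 23.9% had such an FDR, but these include symbols with too few counts for a test here. That share is therefore not comparable with the 51.7% of the 14184 tested genes. Ssr1 lost its call with plain library totals, Copg1 and Copz1 under 4 alternatives each. Partners that fell numbered 43 to 58 and partners that rose 24 to 36. Pairs with ratios that did not overlap numbered 10 to 14, with 14 without I/R replicate 3. Leaving out a library can only keep or raise that count, so the range does not show that it is stable.

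Replicates with the same number did not deviate together (correlations of 0.10, -0.05 and 0.04), and not every library correlated best with its own number. No pairing by number was thus visible, but 3 libraries a group are too few to exclude one. With the replicate block 27 genes fell and 4 rose, 57 partners fell and 28 rose, and Sec16b lost its call at an adjusted p of 0.055. Of the genes, 15 have a near-identical transcript elsewhere, among them Sec61g, Sec61b, Spcs2, Tmed2 and Srp54a to Srp54c, and copies of the partners were not searched. The Srp54b value ran from -0.99 to 1.58 over the alternatives and, with no filter on low counts, had an adjusted p of 0.0024. Counts do not show protein levels, and these marker levels do not establish which cells, of the kidney or not, the RNA came from.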
